A study of Rattus norvegicus with 132 samples.

Results

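The DNA replication and nucleotide supply genes are a list of 49 genes, chosen by symbol, that encode the proteins which copy the genome before a cell divides and the enzymes that supply its deoxynucleotides. Of the 49, 48 have a row among the 21837 gene symbols of the count tables, and all 48 passed the filter on low counts in every fit. E2f1, which encodes a transcription factor that switches on many of the others, has no row and no value here.

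Epithelium of the colon and of the jejunum from Sprague Dawley rats, an outbred laboratory strain, was profiled by RNA-seq in a study of compound Kushen extracts and radiation injury of the gut lining. The irradiated rats received 5 fractions of 4 Gy to the abdomen, spread from day 0 to day 4, and were sampled on day 4 or on day 7. They were given compound Kushen powder by mouth, compound Kushen injection into the peritoneum, water by mouth as the oral vehicle, 0.25% Tween-80 with 25 mM HEPES into the peritoneum as the injected vehicle, or nothing. A last group of rats was neither irradiated nor treated. With 6 libraries for each tissue, treatment and day there are 22 groups and 132 libraries, each labelled as a biological replicate. The labels used here name no age, and do not say whether a colon and a jejunum library come from the same rat. Some sample descriptions call the powder a pill.

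Before a cell copies its DNA, the origin recognition complex, Cdc6 and Cdt1 load the MCM helicase onto replication origins, a step called licensing that geminin (Gmnn) blocks once copying has begun. Cdc45 and the GINS complex then turn the helicase on, primase and DNA polymerases alpha, delta and epsilon build the new strands, and the sliding clamp PCNA keeps the polymerases on the template. In the gut these genes are used mainly by the dividing cells of the crypts, the pockets from which the epithelium renews itself, while mature absorptive cells on the surface no longer divide. Many of the genes are known targets of E2F transcription factors, which bind words such as TTTCCCGC near start sites.

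Total counts were 17196039 to 19800746 per library, so spread between libraries, more than counting error, limits the comparisons of all but the least counted members. Markers of epithelium summed to 7730 CPM (counts of a gene relative to the library total) or more in every library. Enterocyte markers summed to 2170 to 88040 CPM in jejunum and 8.72 to 838.9 CPM in colon, higher in the tissue labelled jejunum. In bulk tissue, fewer cells of a type and less RNA per cell cannot be told apart. Non-irradiated, untreated, oral vehicle and powder groups each hold 3 libraries of library series 1 and 3 of series 2, the first digit of the library name, and all injected groups are of series 3. The share of counts from mitochondrial genes differed between groups and is given beside the results it moves with. Replicate 1 of the irradiated untreated jejunum at day 4 stood apart from its group, and the day 4 jejunum calls are given by role with and without it.

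The promoters of several members are shown because the members moved together after irradiation and many of these promoters hold E2F words. Promoter entries of RefSeq (build GRCr8, from 250 bases before to 50 bases after the start site) were matched for 43 of the 49 genes. The stretches below run from 120 bases before to 30 bases after the start, 5′ to 3′ on the gene's strand. Capitals mark a match to TTTCCCGC, TTTCGCGC, TTTGCCGC or TTTGGCGC on either strand, with overlapping matches counted. Mcm2 (chr4:122918065-122918214, minus strand) and Mcm5 (chr19:13488693-13488842, plus strand) encode helicase subunits. Hells (chr1:246114009-246114158, plus strand) encodes a chromatin remodeller and Clspn (chr5:144134517-144134666, plus strand) encodes claspin, a fork protection factor. Tk1 (chr10:103544748-103544897, minus strand) encodes thymidine kinase, Tyms (chr9:120776054-120776203, minus strand) thymidylate synthase, and Ung (chr12:48154016-48154165, minus strand) uracil-DNA glycosylase.
Mcm2: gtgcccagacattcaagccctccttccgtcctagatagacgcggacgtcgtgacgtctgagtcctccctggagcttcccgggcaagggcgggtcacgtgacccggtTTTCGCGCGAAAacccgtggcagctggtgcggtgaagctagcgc
Mcm5: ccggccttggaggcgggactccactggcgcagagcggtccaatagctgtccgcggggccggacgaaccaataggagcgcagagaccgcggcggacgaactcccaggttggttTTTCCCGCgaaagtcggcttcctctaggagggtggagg
Hells: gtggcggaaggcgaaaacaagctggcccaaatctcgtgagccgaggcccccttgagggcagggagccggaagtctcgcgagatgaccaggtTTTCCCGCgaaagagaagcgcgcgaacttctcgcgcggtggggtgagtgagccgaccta
Clspn: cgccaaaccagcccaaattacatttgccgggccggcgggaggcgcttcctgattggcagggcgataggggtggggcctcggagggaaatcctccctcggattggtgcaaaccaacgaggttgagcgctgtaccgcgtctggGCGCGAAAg
Tk1: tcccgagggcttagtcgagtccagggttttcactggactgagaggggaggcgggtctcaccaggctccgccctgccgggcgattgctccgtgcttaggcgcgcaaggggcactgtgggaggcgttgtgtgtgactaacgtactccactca
Tyms: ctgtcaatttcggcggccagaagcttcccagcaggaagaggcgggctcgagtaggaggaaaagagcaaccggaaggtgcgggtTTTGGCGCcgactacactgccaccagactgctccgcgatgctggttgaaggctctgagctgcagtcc
Ung: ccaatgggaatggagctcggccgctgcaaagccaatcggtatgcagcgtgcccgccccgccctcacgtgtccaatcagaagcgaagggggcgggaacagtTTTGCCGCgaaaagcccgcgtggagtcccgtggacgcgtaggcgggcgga

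Of the 43 promoters, 22 held at least 1 of these E2F words, 51.2%, against 618 of all 27457 promoters in the table, 2.25%, and 8 members held 2 or more. The Mcm2 stretch holds 2 overlapping words on opposite strands, Mcm5, Hells, Tyms and Ung hold 1 each close before the start, Clspn holds 1 just after it, and the Tk1 stretch holds none of these letters. The word CCAAT, which the NF-Y factor binds, occurred on either strand in 25 of 43 member promoters, 58.1%, against 10363 of 27457, 37.7%. A match is a description of the letters in this window and not a measured binding site.

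In colon, irradiation was followed by higher levels of most members at day 4 and of nearly all at day 7. Levels are CPM scaled with TMM factors, which correct for differences in RNA composition, and fold changes with their standard error (SE) are from the edgeR quasi-likelihood test with Benjamini-Hochberg adjustment over all genes, called at an adjusted p under 0.05. Against non-irradiated colon, 32 of 48 members were called higher and 0 lower in irradiated untreated colon at day 4, where 46.9% of all genes tested were called and 24.6% were called higher. At day 7, 45 of 48 were called higher and 1 lower, against 63.6% of all genes called and 32.9% called higher. The median log2 fold change of the members was 0.61 at day 4 and 1.52 at day 7, where the median of all genes was 0.02 at both days. The 2 comparisons share the same non-irradiated libraries. Within library series 1 alone 8 members were called at day 4 and 42 at day 7, and within series 2 alone 30 and 44. Each series holds 3 libraries per group. The share of all genes called is not given for these fits or for later ones with fewer libraries. A loss of power and a result about the members therefore cannot be told apart there.

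In jejunum most members were also called higher, at day 4 with calls that rest in part on 1 library. Against non-irradiated jejunum, 32 of 48 members were called higher and 0 lower at day 4, where 44% of all genes were called and 25% called higher. At day 7, 45 of 48 were called higher and 0 lower, where 58.8% of all genes were called and 31.4% called higher. The median log2 fold change was 1.20 at day 4 and 2.04 at day 7, against 0.05 and 0.02 for all genes. These comparisons also share their non-irradiated libraries. Without replicate 1 of the day 4 group, the day 4 count was 14 higher and 1 lower (Gmnn) with a median of 0.73, so that 18 of the 32 calls were lost. Within series 1 alone 7 members were called at day 4 and 34 at day 7, and within series 2 alone 18 and 44.

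The summed level of the 48 members shows the size of the change. In colon it was 675 to 994 CPM in the non-irradiated group (median 919), 1042 to 1360 CPM at day 4 (median 1256) and 1493 to 2591 CPM at day 7 (median 2258). No library of day 4 or day 7 was as low as any non-irradiated colon library. In jejunum it was 208 to 296 CPM in the non-irradiated group (median 248), 208 to 961 CPM at day 4 (median 372) and 447 to 1668 CPM at day 7 (median 808). The day 4 jejunum group overlapped the non-irradiated one at its low end, where replicate 2 had 208 CPM, while its median lay above every non-irradiated library. Its replicate 1, at 961 CPM, lay far above the next day 4 library, at 426 CPM. All day 7 libraries lay above all non-irradiated ones. Mean sums were 1239 ± 106 and 868 ± 134 CPM in day 4 and non-irradiated colon and 2157 ± 376 CPM in day 7 colon (SD, n = 6 each). In jejunum they were 446 ± 263 CPM at day 4, 911 ± 464 CPM at day 7 and 248 ± 38.5 CPM without irradiation.

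**Figure D1:**
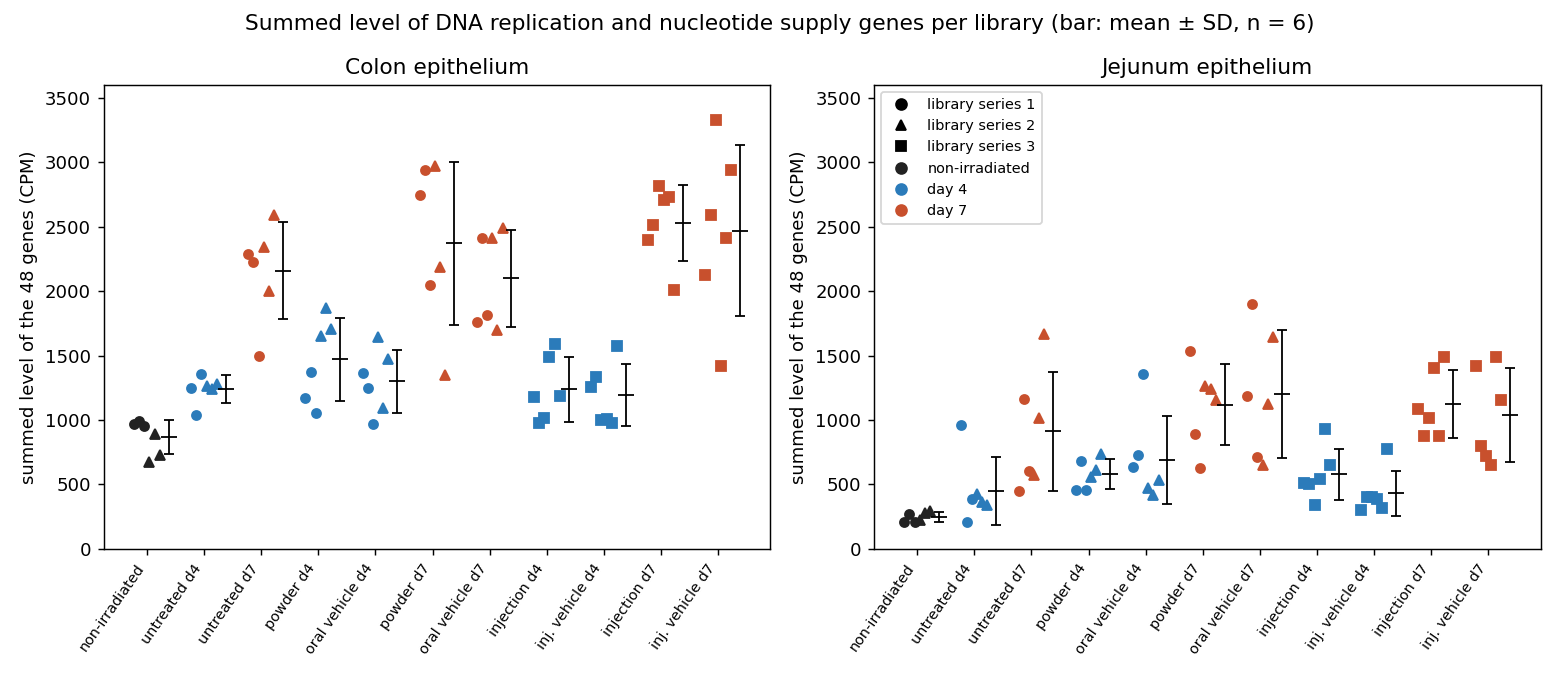
The y axis is the summed level of the 48 genes in CPM and the x axis the 11 groups of each tissue, with 1 point per library (shape: library series; colour: day) and bars of mean ± SD, n = 6. Untreated colon libraries at day 7 lie between 1493 and 2591 CPM, above the 675 to 994 CPM of the non-irradiated ones.

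Gene by gene, the order was the same as for the sum. The group mean was lowest without irradiation and highest at day 7, with day 4 between, for 43 of 48 members in colon and 45 of 48 in jejunum. The share of all genes in that order is not given. The day 4 jejunum means include replicate 1, which lay far above its group in the sum. Every day 4 colon library lay above every non-irradiated one for 24 of 48 members, where 13.5% of all genes did so, and every day 7 library did for 40 of 48, where 20.6% of all genes did. In jejunum 2 members, Mcm10 and Fen1, named here after their values were seen, separated in this way at day 4, against 5.54% of all genes, and 36 at day 7, against 16%.

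Among the licensing factors, Orc1, the largest subunit of the origin recognition complex, changed most. It had 1.64, 2.12 and 3.46 CPM in non-irradiated colon (lowest, median and highest library), 5.41, 8.29 and 10.4 CPM at day 4 and 11.1, 18.8 and 22.3 CPM at day 7. The 3 groups did not overlap, and the log2 fold change against the non-irradiated group was 1.79 ± 0.28 at day 4 (adjusted p = 3.99e-06) and 2.92 ± 0.28 at day 7 (adjusted p = 1.73e-10). In jejunum it was 2.33 ± 0.53 and 3.32 ± 0.53, with only 56 counts of Orc1 in all 6 non-irradiated libraries together. Cdc6, the ATPase that helps load the helicase, was called higher in colon at both days and in jejunum at day 7. In colon it had 3.47, 5.38 and 7.03 CPM without irradiation, 8.39, 10.9 and 15.0 CPM at day 4 and 14.8, 19.9 and 22.0 CPM at day 7, so that the non-irradiated libraries lay below all others. In jejunum its log2 fold change was 0.84 ± 0.36 at day 4, which did not pass (adjusted p = 0.0532), and 1.06 ± 0.35 at day 7 (adjusted p = 0.011).

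Cdt1, the partner of Cdc6 in loading, was called higher in all 4 comparisons with non-irradiated tissue, with log2 fold changes of 0.92 ± 0.25 and 1.59 ± 0.26 in colon at day 4 and day 7 and 0.83 ± 0.32 and 1.61 ± 0.32 in jejunum. In jejunum its levels were 3.13, 3.53 and 5.42 CPM without irradiation, 3.59, 5.65 and 16.3 CPM at day 4 and 7.04, 10.3 and 19.6 CPM at day 7. Only the day 7 libraries all lay above the non-irradiated ones. Geminin, which binds and blocks Cdt1, was called in colon at day 7 alone, with a log2 fold change of 0.97 ± 0.16, while it was −0.00 ± 0.16 in colon at day 4 and −0.44 ± 0.22 and 0.26 ± 0.21 in jejunum at day 4 and day 7. Orc6, another subunit of the origin recognition complex, was called higher in all 4, by 0.72 to 1.77 on the log2 scale. Without replicate 1 of day 4 jejunum, Orc1 kept its call there (1.71, adjusted p = 0.00871), while Cdt1 (0.41, adjusted p = 0.294) and Orc6 (0.41, adjusted p = 0.261) did not pass.

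The replicative helicase was called higher almost throughout. Of its 11 members (Mcm2 to Mcm7, Mcm10, Cdc45, Gins1, Gins2 and Gins3), 10 were called higher at day 4 and 11 at day 7 in each tissue. The exceptions at day 4 were Gins3 in colon (0.39 ± 0.17, adjusted p = 0.0607) and Cdc45 in jejunum (0.43 ± 0.38, adjusted p = 0.361). Median log2 fold changes of the group were 0.97 and 1.93 in colon at day 4 and day 7, and 1.37 and 2.71 in jejunum. Mcm6, a subunit of the ring, had 13.4, 25.3 and 28.4 CPM in non-irradiated colon, 35.5, 44.6 and 50.5 CPM at day 4 and 48.8, 95.2 and 105 CPM at day 7. All irradiated libraries lay above the non-irradiated ones, while replicate 3 of day 7 lay inside the day 4 range. In jejunum Mcm6 had 2.95, 5.43 and 9.12 CPM without irradiation, 4.15, 9.95 and 34.7 CPM at day 4 and 14.7, 28.4 and 74.4 CPM at day 7.

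The other subunits moved by similar amounts. In colon at day 7 the log2 fold changes of the 6 ring subunits lay between 1.51 for Mcm7 and 2.27 for Mcm5, and in jejunum between 2.53 for Mcm6 and 3.40 for Mcm5. Mcm2 had 13.0, 19.9 and 24.6 CPM in non-irradiated colon, 26.3, 27.7 and 33.1 CPM at day 4 and 33.9, 60.6 and 78.2 CPM at day 7, with no overlap between the 3 groups. Mcm10, which joins the helicase when origins fire, was called higher by 1.08 ± 0.23 and 2.15 ± 0.24 in colon and by 1.30 ± 0.25 and 2.03 ± 0.25 in jejunum at day 4 and day 7. Its day 4 jejunum libraries (6.62 to 9.95 CPM) all lay above the non-irradiated ones (1.90 to 4.62 CPM). With replicate 1 of day 4 jejunum left out, Mcm3, Mcm4, Mcm5, Mcm10, Gins1 and Gins2 were still called there, while Mcm2 (0.52, adjusted p = 0.352), Mcm6 (0.58, adjusted p = 0.274), Mcm7 (0.73, adjusted p = 0.177) and Gins3 (0.73, adjusted p = 0.18) did not pass. The Mcm7 transcript overlaps 3 miRNA genes (Mir25, Mir93, Mir106b) in RefSeq.

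Fewer polymerase and primase subunits were called at day 4 than at day 7, and a difference in timing between roles was not tested. At day 4, 3 of 8 were called higher in each tissue, and at day 7, 8 of 8 in colon and 7 of 8 in jejunum. Pold2 and Pole2, the accessory subunits of polymerases delta and epsilon, were called at day 4 in both tissues. In colon Pole2 was higher by 1.12 ± 0.24 and 2.19 ± 0.24 at day 4 and day 7 and Pold2 by 0.72 ± 0.22 and 1.52 ± 0.22. In jejunum Pole2 was higher by 1.90 ± 0.57 and 3.37 ± 0.56, with 25 counts in the 6 non-irradiated libraries together. When replicate 1 of day 4 jejunum was left out, Pold2 was still called there (1.44, adjusted p = 0.0237), while Pole2 (adjusted p = 0.0997) and Prim1 (adjusted p = 0.21) did not pass. Pola1, the catalytic subunit of the polymerase that lays down primers, was not called at day 4 in colon (0.08 ± 0.17, adjusted p = 0.731) or in jejunum (0.70 ± 0.45, adjusted p = 0.21). At day 7 it was called in both, by 0.99 ± 0.17 in colon and 2.54 ± 0.45 in jejunum. Its colon levels were 9.87, 12.9 and 14.5 CPM without irradiation, 9.80, 13.3 and 17.4 CPM at day 4 and 15.8, 25.9 and 30.3 CPM at day 7, so that only day 7 stood clear. Pola2, its regulatory partner, had the smallest change of the group, 0.37 ± 0.13 in colon at day 7, and was not called in jejunum (0.37 ± 0.19, adjusted p = 0.0849).

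At the clamp and its loader the changes were moderate. Pcna encodes the sliding clamp and is also a known target of p53. In colon it had 62.3, 69.9 and 80.8 CPM without irradiation, 69.8, 77.0 and 92.6 CPM at day 4 and 80.1, 122 and 128 CPM at day 7. The groups overlapped at each step, and Pcna was called at day 7 (0.64 ± 0.16, adjusted p = 0.000713) and not at day 4 (0.15 ± 0.16, adjusted p = 0.437). In jejunum it was called at day 7 too (1.27 ± 0.28), with 16.7, 24.0 and 32.8 CPM without irradiation and 35.03, 57.69 and 99.21 CPM at day 7. Of the 4 clamp loader genes on the list, Rfc2, Rfc3 and Rfc4 were called higher in all 4 comparisons and Rfc5 at day 7 in both tissues. Rfc1, another clamp loader gene, is counted among the other replication factors below. Rfc4 was still called in day 4 jejunum without its replicate 1 (0.90, adjusted p = 0.0382), and Rfc2 (adjusted p = 0.206) and Rfc3 (adjusted p = 0.0691) did not pass.

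The single-strand binding protein RPA has 3 subunits that did not move alike. Rpa2 was called higher at both days in both tissues, and Rpa1 in colon at day 7 and in jejunum at both. Rpa3, the smallest subunit, had 28.7, 43.6 and 51.8 CPM in non-irradiated colon, 25.0, 41.5 and 63.6 CPM at day 4 and 34.9, 41.3 and 49.4 CPM at day 7. These ranges overlapped throughout, and its log2 fold change was −0.01 ± 0.19 at day 4 and 0.02 ± 0.19 at day 7. In jejunum Rpa3 was called at day 7 (0.69 ± 0.18, adjusted p = 0.00142). Fen1, the nuclease that trims Okazaki fragments, was called in all 4, by 0.55 to 2.04. It was still called in day 4 jejunum without replicate 1 (0.86, adjusted p = 0.0283), and Rpa1 (adjusted p = 0.133) and Rpa2 (adjusted p = 0.11) did not pass. Lig1, the ligase that seals them, was called at day 7 only, by 0.56 ± 0.15 in colon and 1.98 ± 0.38 in jejunum. It had 40.6, 45.4 and 47.5 CPM in non-irradiated colon and 40.7, 70.1 and 77.9 CPM at day 7, where replicate 3 alone lay inside the non-irradiated range.

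**Figure D2:**
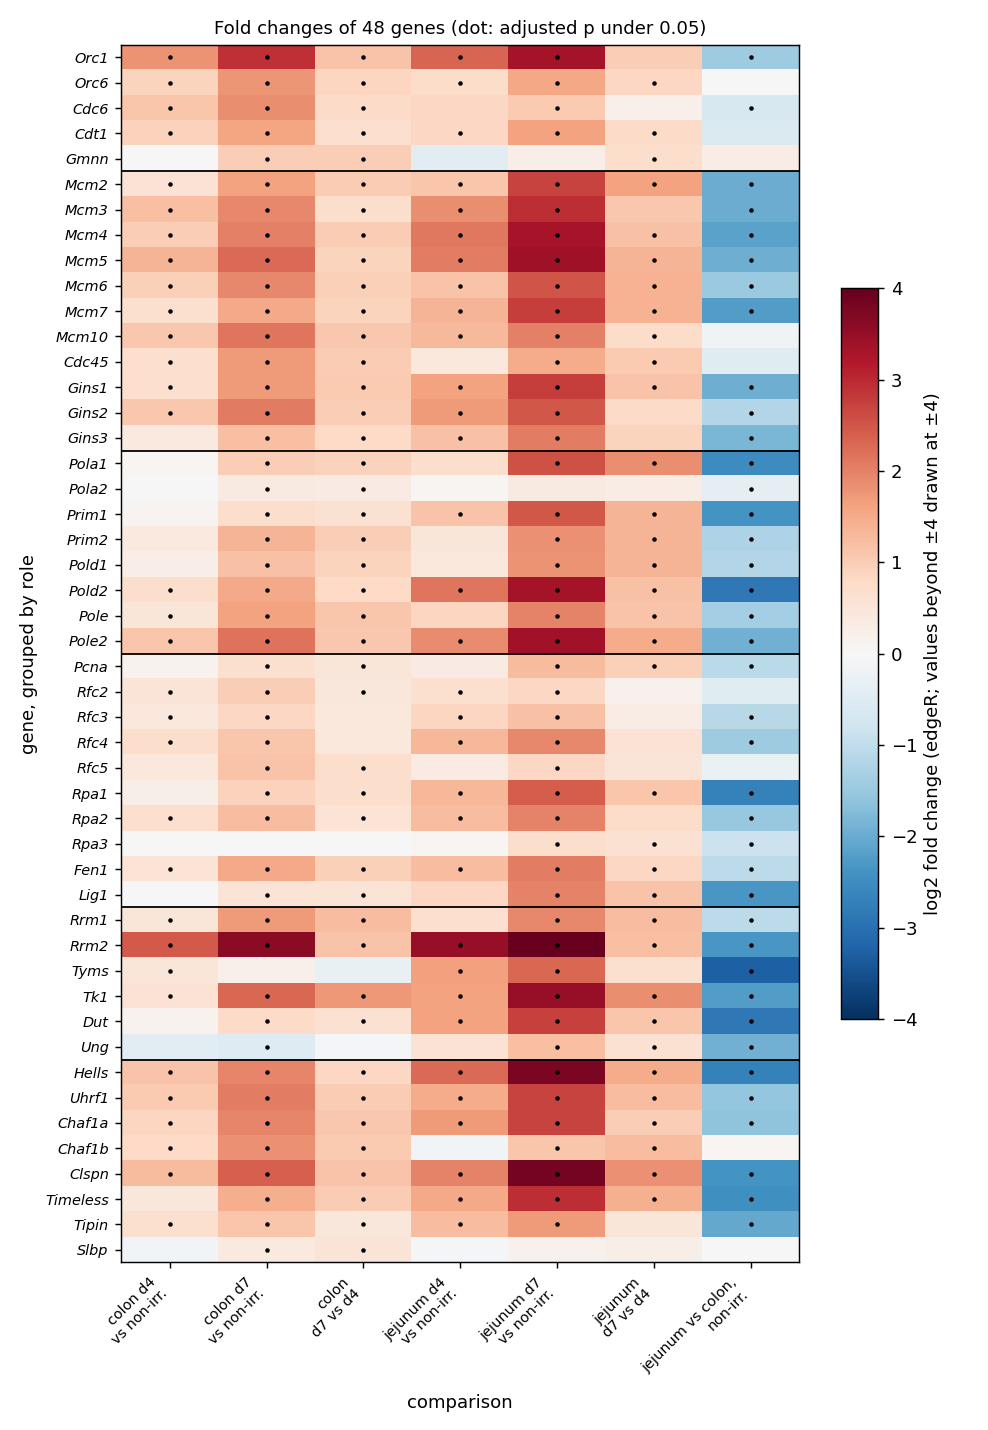
Rows are the 48 genes grouped by role, columns are 7 comparisons, and colour is the edgeR log2 fold change, with a dot where the adjusted p is under 0.05. Rrm2 is the strongest row after irradiation, 3.60 in colon and 4.69 in jejunum at day 7, and the last column shows 39 genes called lower in non-irradiated jejunum than in colon.

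Nucleotide supply held the member with the highest fold change after irradiation and the one called lower. Rrm2 encodes the small subunit of ribonucleotide reductase, the enzyme that turns ribonucleotides into deoxyribonucleotides and whose activity follows the level of this subunit in dividing cells. In colon it had 9.08, 15.5 and 17.7 CPM without irradiation, 52.3, 71.0 and 133 CPM at day 4 and 134 (lowest), 174 and 219 CPM at day 7. The groups did not overlap. The fold change against non-irradiated colon was 5.46 at day 4 (log2 2.45 ± 0.28, adjusted p = 1.66e-08) and 12.1 at day 7 (log2 3.60 ± 0.29, adjusted p = 8.17e-12), the highest of the 48 members at both days. In jejunum Rrm2 had 0.959, 2.08 and 3.16 CPM without irradiation, 2.07, 18.8 and 59.7 CPM at day 4 and 11.4, 49.6 and 124 CPM at day 7. It was again the highest of the 48, with fold changes of 11.1 (log2 3.48 ± 0.56, adjusted p = 1.07e-05) and 25.8 (log2 4.69 ± 0.58, adjusted p = 9.07e-08). Only 1 day 4 jejunum library, replicate 2, lay in the non-irradiated range. RefSeq places Cys1 over Rrm2, by the span of the 2 genes. Shared exons were not examined and the strand setting of the counts is not given, so whether reads of the 2 mix cannot be told.

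Rrm1, the large subunit of the same enzyme, changed less. It had 40.7, 48.9 and 58.0 CPM in non-irradiated colon, 62.8, 67.9 and 73.6 CPM at day 4 and 120 (lowest), 165 and 198 CPM at day 7, with no overlap. Its log2 fold changes were 0.47 ± 0.14 and 1.71 ± 0.15 in colon and 0.67 ± 0.33 (adjusted p = 0.0888, not called) and 1.91 ± 0.33 in jejunum. Tk1, the thymidine kinase that salvages thymidine in S phase, moved mostly between day 4 and day 7. It had 18.0, 34.0 and 41.1 CPM in non-irradiated colon, 41.7, 44.4 and 58.1 CPM at day 4 and 98.4, 162 and 203 CPM at day 7. Its fold change in colon was 1.49 at day 4 (log2 0.58 ± 0.23, adjusted p = 0.0346) and 4.94 at day 7 (log2 2.30 ± 0.23, adjusted p = 4.54e-10), and in jejunum 3.08 and 11.2.

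Tyms and Ung, like Rpa3 above, departed from the other members in colon at day 7. Tyms makes thymidylate from deoxyuridylate, the step blocked by fluorouracil. In colon it had 39.5, 50.9 and 60.7 CPM without irradiation, 44.3, 71.7 and 86.1 CPM at day 4 and 45.1, 56.6 and 74.6 CPM at day 7. The ranges overlapped, and Tyms was called at day 4 (0.49 ± 0.18, adjusted p = 0.0256) and not at day 7 (0.21 ± 0.18, adjusted p = 0.313). In jejunum it was called at both days, by 1.65 ± 0.34 and 2.28 ± 0.35. Ung, which removes uracil from DNA, was the only member called lower in any comparison of irradiated with non-irradiated tissue. It had 25.3, 33.1 and 37.6 CPM in day 7 colon, against 38.7, 46.6 and 48.5 CPM in non-irradiated colon, with no overlap (log2 −0.50 ± 0.19, adjusted p = 0.0218), and was 1 of the 21.2% of genes with all day 7 libraries below. In jejunum Ung was called higher at day 7 (1.20 ± 0.25, adjusted p = 0.000179). Dut, which destroys dUTP before it can enter DNA, was called higher in colon at day 7 (0.75 ± 0.19) and in jejunum at both days (1.62 ± 0.46 and 2.72 ± 0.47). Rrm2 (2.87, adjusted p = 0.000103) and Tyms (1.32, adjusted p = 0.0025) were still called in day 4 jejunum without replicate 1, while Tk1 (0.92, adjusted p = 0.0927) and Dut (1.04, adjusted p = 0.0546) did not pass.

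The factors that copy chromatin and guard the fork were called higher for 6 of 8 members at day 4 in each tissue, and for 8 of 8 in colon and 7 of 8 in jejunum at day 7. Uhrf1, which brings the maintenance DNA methyltransferase to newly copied DNA, had 9.20, 17.6 and 19.7 CPM in non-irradiated colon, 28.1, 33.9 and 39.1 CPM at day 4 and 39.4, 72.6 and 83.8 CPM at day 7. No ranges overlapped, with log2 fold changes of 1.05 ± 0.24 and 2.05 ± 0.25, and of 1.49 ± 0.43 and 2.72 ± 0.44 in jejunum. RefSeq places Arrdc5 over Uhrf1, so the same limit as for Rrm2 applies, and likewise for Clspn, Lig1, Fen1, Gins2 and Pole2, each with an overlapping gene. Pseudogenes, small RNA genes or unnamed loci overlap Mcm3, Mcm6, Gins1, Pola1, Pole, Rpa1, Hells, Timeless and Tipin. Hells and Clspn were among the strongest in jejunum at day 7, by 3.78 ± 0.53 and 3.82 ± 0.56. Chaf1a, the large subunit of the histone chaperone CAF-1, was called in all 4, while its partner Chaf1b was not called in jejunum at day 4 (−0.12 ± 0.30). Slbp, which binds histone mRNAs, changed least. It had 44.2, 54.6 and 61.7 CPM in non-irradiated colon, 45.4, 49.1 and 54.4 CPM at day 4 and 65.9, 69.1 and 77.3 CPM at day 7, and was called in colon at day 7 alone (0.39 ± 0.10). Without replicate 1 of day 4 jejunum, Hells (1.73, adjusted p = 0.00925) and Chaf1a (1.20, adjusted p = 0.0193) were still called there, while Uhrf1 (0.97, adjusted p = 0.0646), Clspn (adjusted p = 0.0664), Timeless (adjusted p = 0.0521) and Tipin (adjusted p = 0.171) did not pass.

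At day 4, 11 members were called in neither tissue. These were Gmnn, Pola1, Pola2, Prim2, Pold1, Pcna, Rfc5, Rpa3, Lig1, Ung and Slbp.

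**Figure D3:**
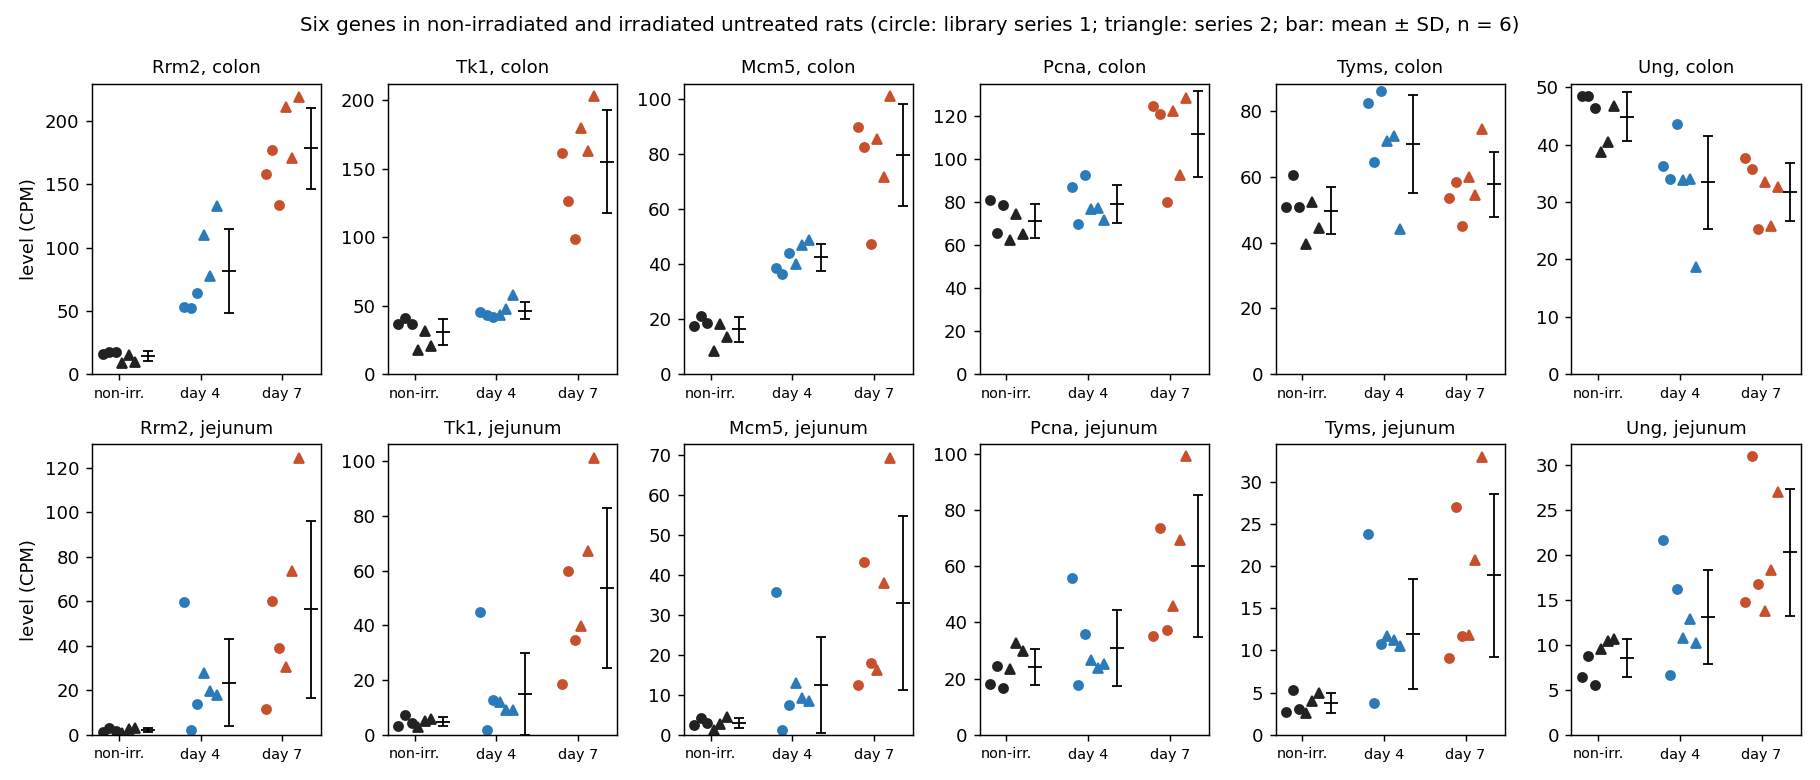
Levels in CPM of Rrm2, Tk1, Mcm5, Pcna, Tyms and Ung (upper row colon, lower row jejunum) in non-irradiated and untreated irradiated rats, with 1 point per library, shape for library series and bars of mean ± SD, n = 6. Colon Ung lies at 25.3 to 37.6 CPM at day 7, below the 38.7 to 48.5 CPM without irradiation, while colon Rrm2 lies at 134 to 219 CPM against 9.08 to 17.7 CPM.

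Other genes of the pathway moved with the members. Among 27 other replication factors tested, 13 were called higher and 1 lower in colon at day 4, 20 and 2 at day 7, 18 and 0 in jejunum at day 4 and 21 and 1 at day 7. Those with the smallest p included Gins4, the remaining GINS subunit, and Ticrr, which helps start replication. Ticrr was higher by 1.03 ± 0.21 and 2.39 ± 0.22 in colon and by 2.01 ± 0.44 and 2.99 ± 0.44 in jejunum at day 4 and day 7. Among 29 other nucleotide synthesis genes, 19 were called higher and 3 lower in colon at day 4, 23 and 3 at day 7, 16 and 3 in jejunum at day 4 and 22 and 2 at day 7. Ctps1, the CTP synthase of proliferating cells, was higher by 1.87 ± 0.29 in colon and 2.94 ± 0.46 in jejunum at day 4, and Mthfd1, an enzyme of folate metabolism, by 1.71 ± 0.15 in colon and 3.28 ± 0.42 in jejunum at day 7. Of 8 other chromatin copying factors, 3 were called higher and 2 lower in colon at day 4, 5 and 1 at day 7, 4 and 0 in jejunum at day 4 and 6 and 0 at day 7, with Asf1b, a histone chaperone, at 1.98 ± 0.22 in colon and 3.43 ± 0.50 in jejunum at day 7.

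G1/S control genes were mixed. Of 22 tested, 8 were called higher and 4 lower in colon at day 4, 15 and 4 at day 7, 12 and 3 in jejunum at day 4 and 16 and 4 at day 7. Ccne1, the cyclin that drives entry into S phase, was higher by 2.09 ± 0.25 and 2.61 ± 0.25 in colon and by 3.49 ± 0.59 and 4.26 ± 0.59 in jejunum at day 4 and day 7. Cdkn1a, the p53 target that halts the cycle, was higher by 1.35 ± 0.18 in colon at day 4, and Rb1, which restrains E2F factors, fell by 0.68 ± 0.09 and 1.14 ± 0.09 in colon at day 4 and day 7. E2f1 itself was not measured. As examples of other E2F genes in the list, E2f2 was higher by 2.16 ± 0.19 in colon at day 7 and E2f7 by 3.26 ± 0.52 in jejunum at day 7. Values of E2f3, E2f4, E2f5, E2f6 and E2f8 are not given here, and a link of E2F genes to the members was not tested.

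Mitosis genes moved the same way. Of 23 tested, 16 were called higher in colon at day 4, 20 in jejunum at day 4 and 23 in each tissue at day 7, and 0 lower. Their summed level changed by more than that of the members. The ratio of group means against non-irradiated tissue was 1.54 for the mitosis genes and 1.43 for the members in colon at day 4, 3.74 and 2.49 in colon at day 7, 2.53 and 1.80 in jejunum at day 4 and 7.05 and 3.68 in jejunum at day 7.

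Between day 4 and day 7 the members went on increasing in untreated rats. In colon 43 of 48 were called higher at day 7 than at day 4 and 0 lower, where 36.5% of all genes were called and 18% called higher, with a median log2 fold change of 0.89. In jejunum it was 34 of 48 and 0 lower, where 41% of genes were called and 20.3% called higher, with a median of 1.08. Tk1 was the highest member in both, at 1.73 ± 0.23 in colon and 1.86 ± 0.46 in jejunum, followed in colon by Rrm1 (1.24 ± 0.14) and Rrm2 (1.15 ± 0.26) and in jejunum by Pola1 (1.85 ± 0.44) and Clspn (1.82 ± 0.49). In colon every day 7 library lay above every day 4 library for 22 members, where 5.75% of all genes did so, and in jejunum for 0, where 3.65% did. Not called in colon were Rfc3, Rfc4, Rpa3, Tyms and Ung, of which Tyms was −0.28 ± 0.18. The jejunum count depended on the libraries used, with 0 members called within library series 1 and 43 within series 2, 45 without replicate 1 of day 4 and 23 without its replicate 2. A fit of only the groups compared called 5 (Pold1, Rpa3, Clspn, Pola1 and Chaf1b).

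The difference between the days was also tested in the treated arms. In the oral arms (powder and oral vehicle together), 45 members were called higher at day 7 than at day 4 and 1 lower in colon, and 41 higher and 0 lower in jejunum, where 55.3% and 53.7% of all genes were called and 28% and 27.8% called higher. In the injected arms (injection and injected vehicle together), 46 were called higher in colon and 47 in jejunum, and 0 lower, where 51.9% and 63.5% of all genes were called and 24.5% and 32.1% called higher. Within library series 1 alone 0 members were called in the oral arms of jejunum, and within series 2 alone 17 in those of colon. With the share of mitochondrial counts in the fit, 2 (Rrm1 and Slbp) were called in the oral arms of colon and 22 in the injected arms of jejunum. Tk1 led in all 4, with log2 differences of 1.44 ± 0.16 and 1.49 ± 0.32 in oral colon and jejunum and 1.72 ± 0.13 and 1.80 ± 0.26 in injected colon and jejunum. The member called lower was Tyms in the oral arms of colon (−0.53 ± 0.13, adjusted p = 0.000782). Taking each arm alone, the day 7 mean was above the day 4 mean for 45 to 48 of 48 members in colon and for all 48 in each jejunum arm. The share of all genes with that order of means is not given.

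Within single arms the levels of Tk1 show the step. In colon Tk1 had 98.4 to 203 CPM at day 7 and 41.7 to 58.1 CPM at day 4 in untreated rats, 115 to 176 and 30.6 to 77.4 CPM under oral vehicle, and 106 to 199 and 30.8 to 94.7 CPM under powder. Under injected vehicle it had 119 to 268 CPM at day 7 and 43.8 to 78.0 CPM at day 4, and under injection 137 to 224 and 37.2 to 72.7 CPM. No colon arm had overlapping days for Tk1. In jejunum the days overlapped in untreated rats, with 18.5 to 101 CPM at day 7 and 1.91 to 44.8 CPM at day 4, under injected vehicle, with 33.4 to 112 and 7.55 to 38.2 CPM, and under oral vehicle, with 40.1 to 140 CPM at day 7 and 9.78 to 72.8 CPM at day 4, and did not under powder, with 37.8 to 85.6 and 13.5 to 30.6 CPM, or under injection, with 59.7 to 102 and 8.40 to 42.5 CPM.

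Values that moved with these differences belong beside them. In colon the share of mitochondrial counts was 12.3% ± 1.25 without irradiation, 9.16% ± 1.03 at day 4 and 3.95% ± 0.607 at day 7 (SD, n = 6 each), with no overlap between day 7 and the other groups. With that share as a term in the fit, 15 members were called at day 4 and 3 at day 7 (Orc1, Rrm1 and Rrm2), and 3 between the days (Rrm1, Pole and Slbp). Calls over all genes fell in the same fits, to 2847, 272 and 575 genes, against 6242, 8469 and 4862 without that term, and the median log2 fold changes of the members were 0.48, 0.91 and 0.53. In jejunum the share was 12.3% ± 6.95, 12.7% ± 5.86 and 5.39% ± 1.83 in the same order, and with it in the fit 26, 46 and 44 members were called. Calls over all genes in these jejunum fits are not given here. Fibroblast markers were called higher in colon for 6 of 6 genes at both days, with sums of 5.02 to 13.1 CPM without irradiation, 30.01 to 105 CPM at day 4 and 13.3 to 253 CPM at day 7. Neutrophil markers were called higher in colon for 3 of 3 tested, and B and plasma cell markers lower for 4 of 5 at day 4 and 5 of 5 at day 7. Crypt markers (Lgr5, Olfm4, Ascl2, Axin2 and Sox9) were called higher for 4 of 5 in colon at both days and for 3 and 4 of 5 in jejunum at day 4 and day 7, with Olfm4 called lower in jejunum at day 4. In jejunum T cell markers were called lower for 4 of 4 at both days, and goblet cell markers for 4 and 3 of 5. The part of these in the member results was not tested.

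In jejunum the members ran opposite to the markers of mature absorptive cells. Enterocyte markers (Alpi, Fabp2, Anpep, Apoa4, Si and Lct, none of them at 0 in jejunum) summed to 46830 to 58290 CPM in the non-irradiated group, 21490 to 88040 CPM at day 4 and 7969 to 38260 CPM at day 7. In 8 of the 11 jejunum groups the library with the highest member sum had the lowest enterocyte sum, and in 7 the library with the lowest member sum had the highest. In untreated jejunum at day 4, replicate 1 had 961 CPM of the members with 21490 CPM of the markers, and replicate 2 had 208 CPM of the members with 88040 CPM of the markers. At day 7 the same held of replicate 6, with 1668 and 7969 CPM, and replicate 1, with 447 and 38260 CPM. In colon, with colonocyte markers (Slc26a3, Car1, Aqp8 and Krt20), the counts were 2 and 7 of 11. Both sums are shares of the same libraries, and the part of the markers in the member results was not tested.

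**Figure D4:**
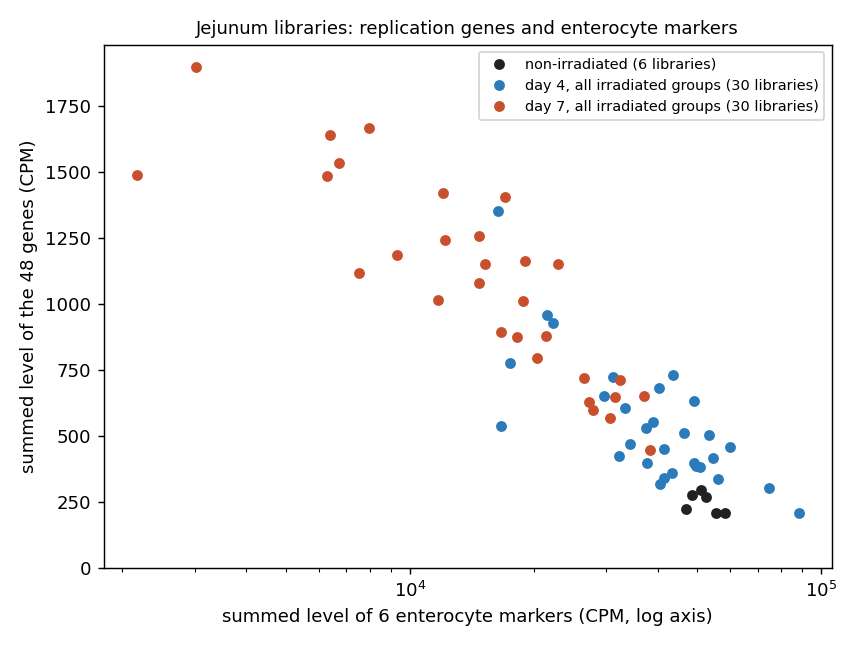
Each point is 1 jejunum library, with the summed level of 6 enterocyte markers (CPM, log axis) on x and the summed level of the 48 genes (CPM) on y, coloured by day over all arms. The non-irradiated libraries sit at 208 to 296 CPM of the 48 genes, and the libraries with most of the 48 genes lie to the left.

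The 2 tissues differed before irradiation. In non-irradiated rats 39 of 48 members were called lower in jejunum than in colon and 0 higher, where 71.5% of all genes were called and 41.6% called lower, with a median log2 difference of −1.53 against −0.21 for all genes. Tyms (−3.26 ± 0.30), Dut (−2.86 ± 0.37) and Pold2 (−2.85 ± 0.43) were lowest. Every jejunum library lay below every colon library for 34 of 48 members, where 30.1% of all genes did. In the licensing group 2 of 5 were called (Orc1 and Cdc6) and in nucleotide supply all 6, and Cdc6 turned direction in library series 2 alone (0.12, adjusted p = 0.806). Among other lists, 24 of 27 other replication factors and 22 of 23 mitosis genes were called lower in jejunum. After irradiation, the day 7 jejunum mean lay above the non-irradiated colon mean for 33 of 48 members. CPM were scaled within each tissue, so these levels are not on a common scale. The difference was not tested, and the share of all genes is not given.

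The rise after irradiation was called larger in jejunum for a minority of members. The test of the difference between tissues (irradiated minus non-irradiated in jejunum, minus the same in colon) called 4 of 48 members at day 4, where 21.5% of all genes were called, and 16 at day 7, where 39.4% were. All of the called differences were positive, that is with a larger log2 change in jejunum. At day 4 they were Dut (1.58 ± 0.49), Pold2 (1.49 ± 0.56), Tyms (1.21 ± 0.39) and Ung (1.06 ± 0.32). At day 7 Tyms (2.16 ± 0.39, adjusted p = 8.27e-06), Dut (2.06 ± 0.49) and Hells (1.88 ± 0.57) had the largest differences. Both shares of calls among members lay below those among all genes. Called or not, the difference was above 0 for 41 of 48 members at day 4 and 39 of 48 at day 7. Its median over the members was 0.67 at day 4 and 0.80 at day 7, against 0.11 and 0.18 for all genes. Without replicate 1 of the day 4 jejunum group, the day 4 difference was called for Chaf1b in the other direction (−1.11, adjusted p = 0.0315), kept for Ung (0.87, adjusted p = 0.0459) and lost for Dut (0.93, adjusted p = 0.152), Tyms (0.88, adjusted p = 0.0931) and Pold2 (0.77, adjusted p = 0.335). Without replicate 2 of that group 10 members were called, and within library series 2 alone 1 was, Gmnn, with the smaller change in jejunum. At day 7, 5 members were called within series 1 and 10 within series 2.

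The Kushen preparations were set against their own vehicles, the comparison named in the study title. Of 48 members, 1 was called for powder against oral vehicle in colon at day 4, where 11.8% of all genes were called (4.89% higher and 6.9% lower), and 0 in colon at day 7, jejunum at day 4 and jejunum at day 7, where 0%, 0.008% and 0.008% of genes were called. At an unadjusted p under 0.05 there were 7, 1, 0 and 0 members in the same order. The share of all genes at that threshold is not given, here or below. Such counts are therefore not read as results about the members. Injection against injected vehicle called 0 members and 0% of genes in both tissues at both days, with 0, 0, 8 and 0 members at an unadjusted p under 0.05 in colon at day 4, colon at day 7, jejunum at day 4 and jejunum at day 7. DESeq2 called 1 member, Rpa3, under powder in colon at day 4 and 0 in the other 7 comparisons.

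The member called under powder was Rpa3. It had 43.0 to 71.6 CPM (59.2 ± 11.6, SD, n = 6) under powder and 25.7 to 44.4 CPM (35.4 ± 7.97) under oral vehicle in colon at day 4, so that the lowest powder library lay inside the vehicle range. The log2 fold change was 0.74 ± 0.19 (adjusted p = 0.0104), and within the library series alone it was 0.55 (adjusted p = 0.207) and 0.89 (adjusted p = 0.135). Neutrophil markers were called lower under powder in the same comparison for 3 of 3 tested, and 3 other replication factors (Rnaseh2b, Mcm8 and Orc3) were called higher. Rrm2, the strongest member after irradiation, had 39.5, 66.0 and 127 CPM under powder and 48.8, 110 and 142 CPM under oral vehicle in that comparison, and the ranges overlapped.

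Powder over oral vehicle gave a median log2 fold change of 0.15 in colon at day 4 (43 of 48 above 0) and 0.17 at day 7 (48 of 48), and −0.27 in jejunum at day 4 (3 of 48) and −0.14 at day 7 (9 of 48). The medians of all genes were 0.01, 0.04, −0.03 and −0.02 in the same order. Many members can be high together in a single library, so counts of signs are not counts of independent results. Without replicate 3 of the oral vehicle group, its highest library, the jejunum day 4 median was 0.05.

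Under injection in jejunum at day 4, the members lay mostly on one side without passing the test. Of the 48, 47 log2 fold changes were above 0, with a median of 0.45 against −7.06e-05 for all genes. The highest were Clspn (0.81 ± 0.40), Mcm4 (0.75 ± 0.36) and Pold2 (0.68 ± 0.38), none with an adjusted p under 0.58. Member sums were 340 to 928 CPM under injection (median 526) and 303 to 778 CPM under injected vehicle (median 393), with overlap. Without replicate 6 of the vehicle group, the highest of its libraries, 39 members had an unadjusted p under 0.05 with a median of 0.73, and 0 were called. In the injection group, replicate 4 had 38.0% mitochondrial counts and 274 CPM of smooth muscle markers, and without it the median was 0.45 and 0 were called.

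Oral vehicle against no treatment gave a similar picture in jejunum at day 4. All 48 members had a log2 fold change above 0, with a median of 0.67 against −0.01 for all genes. Of the members, 13 had an unadjusted p under 0.05 and 0 were called, where 0% of all genes were. Sums were 418 to 1354 CPM under oral vehicle (median 583) and 208 to 961 CPM without treatment (median 372). The highest library of each group stood apart. Without replicate 3 of the vehicle group the median was 0.34, and without replicate 1 of the untreated group it was 1.20, with 44 members at an unadjusted p under 0.05 and 0 called. In colon the medians were 0.09 at day 4 and −0.03 at day 7, and in jejunum at day 7 0.38, with 0 members called in each, where 0%, 0.00752% and 0.008% of all genes were called (in colon at day 7 all of them higher). The tests of whether a preparation's difference from vehicle changed between day 4 and day 7 called 0 of 48 in each tissue and for each preparation. The share of all genes called in these tests is not given, so these counts are not read as results about the members.

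**Figure D5:**
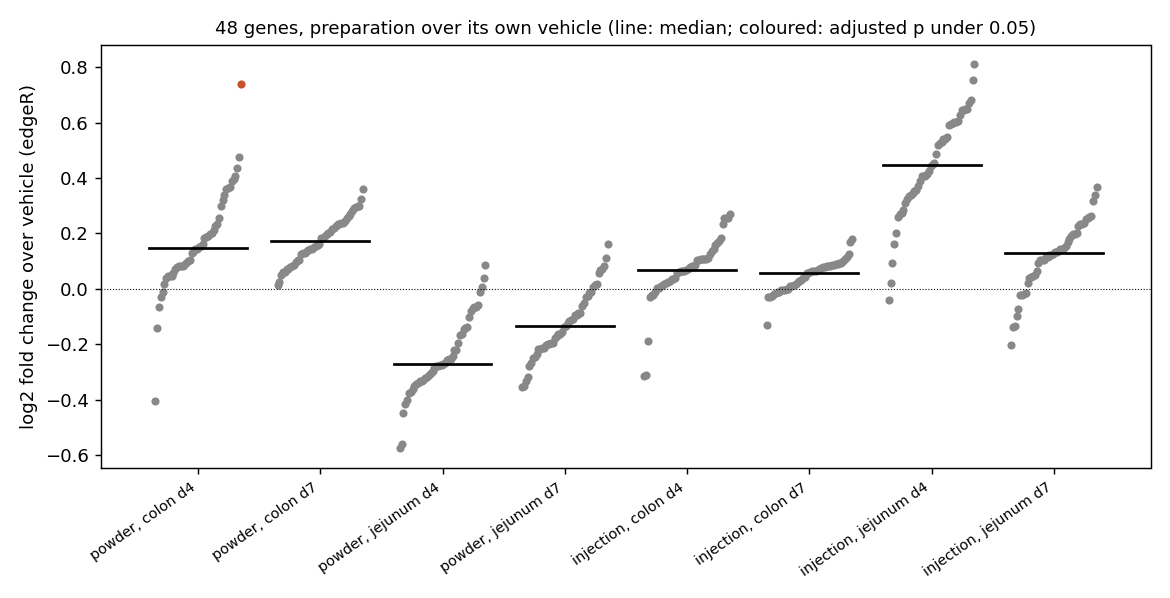
Each point is the log2 fold change (edgeR) of 1 of the 48 genes for a preparation over its own vehicle, sorted within each of 8 comparisons, with a line at the median and colour where the adjusted p is under 0.05. The only coloured point is Rpa3 under powder in colon at day 4, at 0.74.

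Mean sums were, in colon at day 7, 2372 ± 634 CPM under powder, 2098 ± 376 CPM under oral vehicle, 2529 ± 297 CPM under injection, 2470 ± 662 CPM under injected vehicle and 2157 ± 376 CPM untreated. At day 4 they were 1471 ± 321, 1299 ± 247, 1238 ± 250, 1193 ± 239 and 1239 ± 106 CPM in the same order of groups. In jejunum at day 7 the means were 1119 ± 316 CPM under powder, 1203 ± 495 CPM under oral vehicle, 1124 ± 264 CPM under injection, 1038 ± 367 CPM under injected vehicle and 911 ± 464 CPM untreated. In jejunum at day 4 they were 582 ± 115, 689 ± 344, 580 ± 198, 431 ± 175 and 446 ± 263 CPM in the same order. In each tissue and day the mean of a preparation differed from that of its vehicle by less than 1 SD of the vehicle group.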

How the data were processed

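RNA was sequenced as 150-base paired ends on a DNBSEQ-G400, per the labels' protocols. Reads were aligned with STAR 2.7.10a to mRatBN7.2, per the submitters' processing notes. Which counter, annotation and strand setting made the table is not given in the sources used here, so strand-resolved overlaps cannot be checked. The deposited values are raw counts per gene symbol, in 2 tables that share 36 libraries with identical values, used once. The list of 49 genes, the other gene lists and the genes named (the whole list by role, a panel with full values, and the extremes of each comparison) were chosen with earlier results of these data known.

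Counts were scaled with TMM and tested with the edgeR 4.0.16 quasi-likelihood F test (R 4.3.3, limma 3.58.1) after filterByExpr, with Benjamini-Hochberg adjustment over all genes and a threshold of 0.05. Fits held 42 libraries per tissue for the oral table and 24 for the injected one, and 84 for both tissues, with library series as a term where it varied. Levels are CPM within a tissue. Alternatives included DESeq2 1.42.0 and leaving out libraries. Scripts were tested on simulated data. Replicates are labelled biological, but no rat is named. In the oral table, deviations from the group mean were correlated between libraries of 1 tissue with the same replicate number. The median was 0.0135 in colon and -0.000855 in jejunum, against -0.00436 and -7.11e-05 for other numbers. Of the same-numbered pairs, 47 of 126 in colon and 42 of 126 in jejunum correlated above 0.1. That share is not given for other numbers. Libraries of the 2 tissues with the same library number correlated above 0.1 in 19 of 42 pairs, with a median of 0.0805 against -0.00448 for other numbers. Whether a shared number means the same rat is not stated. The reported tests between tissues did not pair the numbers, so they may ignore a real pairing. With a block by library number shared by both tissues, 54 member calls were the same and 5 were weaker. Promoters are from RefSeq, build GRCr8.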

Additional observations from a re-analysis of the deposited data

Results flagged for a closer look

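Values far from the rest of their group were found in 15 of 106 tests of groups of 6. Chance flags about 1 in 20 independent groups. These tests are not independent, since many use the same libraries and members that move together, so the 2 shares cannot be compared. Replicate 1 of untreated jejunum at day 4 was the highest of its group for the member sum (961.4 CPM) and for Cdt1 (16.32 CPM), Mcm2 (19.53 CPM), Mcm6 (34.67 CPM), Lig1 (29.05 CPM), Rrm1 (61.04 CPM), Tk1 (44.83 CPM) and Uhrf1 (27.02 CPM). The member sum was also far above its group in replicate 3 of oral vehicle jejunum at day 4 (1354 CPM) and replicate 6 of injected vehicle jejunum at day 4 (778.3 CPM). Replicate 3 of untreated colon at day 7 was far below its group for Cdc6 (14.78 CPM), Pola1 (15.82 CPM) and Lig1 (40.7 CPM). Tk1 was high in replicate 6 of untreated colon at day 4 (58.06 CPM), and Cdt1 in replicate 2 of non-irradiated jejunum (5.416 CPM).

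The irradiation change differed between jejunum and colon, by the test of that difference, for 4 members at day 4, on the log2 scale Dut 1.58, Pold2 1.49, Tyms 1.21 and Ung 1.06, where 21.5% of all genes were called, a larger share than of the members. Without replicate 1 of untreated jejunum at day 4, Dut, Pold2 and Tyms lost the call. At day 7 it differed for 16 members, where 39.4% of all genes were called, again a larger share. The helicase members among them were Mcm2 (1.17), Mcm4 (1.35), Mcm7 (1.35) and Gins1 (1.14). The polymerase and fork enzymes were Pola1 (1.63), Prim1 (1.85), Pold2 (1.87), Rpa1 (1.57), Rpa3 (0.753) and Lig1 (1.5). The nucleotide genes were Tyms (2.16), Dut (2.06) and Ung (1.79), and the chromatin and fork factors Hells (1.88), Clspn (1.48) and Timeless (1.57). The cause of these differences was not tested.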

How the results depend on the processing

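Counts of members called stayed within 1.5 times the reported ones under RLE size factors, DESeq2, no filter on low counts, mitochondrial genes left out and no library series term. For the counts below, calls over all genes in the same fit are given only for untreated colon with the mitochondrial share, above. With the share of mitochondrial counts as a covariate, 15 members were called in day 4 and 3 in day 7 against non-irradiated colon, 3 between the days in untreated colon, 2 (Rrm1 and Slbp) in the oral arms of colon, 22 in the injected arms of jejunum and 1 (Ung) in the tissue difference at day 4. In library series 1 alone the counts were 8 for day 4 colon, 7 for day 4 jejunum, 0 between days in untreated jejunum, 0 for powder in colon at day 4, 0 for the oral arms of jejunum and 5 for the tissue difference at day 7. In series 2 alone they were 18 for day 4 jejunum, 0 for powder in colon at day 4, 17 for the oral arms of colon, 10 for the tissue difference at day 7, and 1 for that at day 4, which reversed to Gmnn lower. Fits of only the groups compared called 21 for day 4 jejunum and 5 between days in untreated jejunum (Pold1, Rpa3, Clspn, Pola1 and Chaf1b). Leaving out replicate 1 or 2 of untreated jejunum at day 4, chosen after seeing the data, gave 15 and 36 for day 4 jejunum, 45 and 23 between days, and 2 and 10 for the tissue difference at day 4. Cdc6 in non-irradiated jejunum against colon reversed in series 2 alone, to 0.119 (edgeR adjusted p = 0.806). The causes were not tested. A replicate block called 33 in day 4 colon, 32 in day 4 jejunum and 25 between days in untreated jejunum; the planned block by library number could not be fitted within 1 tissue for jejunum against non-irradiated jejunum, so the replicate number was used. Counting depth limits the least counted members, such as Pole2 with 25 counts in non-irradiated jejunum.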
